A study of Homo sapiens with 72 samples.

Results

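The human mitochondrial chromosome carries 37 annotated genes whose symbols start with MT-: 13 mRNAs, 2 ribosomal RNAs and 22 transfer RNAs. They were taken by symbol alone, matched by Ensembl gene identifier, and all 37 were among the 60371 genes listed for each library. Their values are given here in 72 wells of U2OS cells, a human osteosarcoma line grown in 24-well plates and harvested after 12 h of treatment. The vehicle DMSO alone was given to 18 wells, and 54 wells held 6 compounds, each in triplicate at 3 concentrations (100, 1000 and 10000 nM). These doses are those of the labels, and the study's results text gives the same 3 doses. Its methods list a lower dose in place of 1000 nM, which differs from both. The compounds included triptolide, which targets the ERCC3 subunit of the general transcription factor TFIIH, and homoharringtonine, which blocks elongation on cytosolic ribosomes. The others were the kinase inhibitors nilotinib, pyrazolanthrone and MK-2206, and miglitol, an inhibitor of intestinal alpha-glucosidases. All groups were wells of this one line at one time point, and no group differed from the DMSO wells in genotype. The labels number the wells but do not say that they came from separate cultures, so p-values measure the spread between these wells, which may be technical. The mesenchymal and bone genes VIM and SPARC were at 1842 ± 132 and 2144 ± 479 TPM in the DMSO wells (SD, n = 18), RUNX2 was at 3.91 ± 0.684 TPM, and COL1A2, a bone matrix collagen, was close to 0 at 0.0889 ± 0.0640 TPM. Among markers of other cell types, EPCAM was at 2.35 ± 0.839 TPM, and CDH1, PTPRC, ALB and PECAM1 were each under 0.5 TPM on average.

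Mitochondrial genes are not transcribed by RNA polymerase II. The single-subunit polymerase POLRMT starts at promoters of both strands with TFAM and TFB2M, makes long transcripts that span many genes, and the mRNAs and rRNAs are released mostly by cutting out the tRNAs between them. The mRNAs encode core subunits of the respiratory chain and of ATP synthase, which assemble with many subunits encoded in the nucleus, and they are translated on ribosomes of the organelle that contain MT-RNR1 (12S) and MT-RNR2 (16S). Most of the mRNAs receive poly(A) tails inside the organelle, the rRNAs carry only short oligo(A) tails, and MT-ND6 is known as the mRNA without a tail. That background bears on these libraries, which were made after poly(A) selection.

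In the GENCODE annotation of GRCh38 (release 44), 28 of the 37 genes lie on the plus strand of the mitochondrial chromosome and 9 on the minus strand. The minus strand genes are MT-ND6 and 8 tRNAs, so that 12 of the 13 mRNAs and both rRNAs share a strand. Several mRNA genes touch or overlap, and 6 of the 13 end before their stop codon is complete. The following stretches of the reference, all written along the plus strand, are shown because the reads of neighbouring genes meet there. MT-ATP8 and MT-ATP6 share 46 bases (chrM:8527-8572), MT-ATP6 and MT-CO3 share 1 base (chrM:9207-9207), and MT-ND4L and MT-ND4 share 7 bases (chrM:10760-10766); shared bases are in capitals. MT-ND5 ends at position 14148 and MT-ND6, read from the other strand, ends at 14149; there the capitals mark the last codon of each.
MT-ATP8/MT-ATP6: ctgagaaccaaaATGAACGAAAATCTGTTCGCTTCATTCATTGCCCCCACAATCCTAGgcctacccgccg
MT-ATP6/MT-CO3: cacgacaacacataAtgacccaccaatca
MT-ND4L/MT-ND4: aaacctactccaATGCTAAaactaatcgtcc
MT-ND5/MT-ND6: ctcctaatcacaTAACCTattcccccgagc

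The last 18 bases of the 6 mRNA genes with an incomplete stop codon are shown because the poly(A) tail, on which these libraries were selected, supplies the missing bases; capitals mark what the chromosome encodes of the stop codon. MT-ND1 has 2 of the 3 bases and the others have 1.
MT-ND1 end: cattccccctcaaaccTA
MT-ND2 end: ttatactaataatcttaT
MT-CO3 end: tctattgatgagggtctT
MT-ND3 end: gattagactgaaccgaaT
MT-ND4 end: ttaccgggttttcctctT
MT-CYB end: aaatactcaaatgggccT

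Of the 37 genes, 15 had counts. The 22 tRNA genes, 59 to 75 bases long, had an effective length of 0 and a count of 0 in all 72 libraries. They were therefore not measurable in these libraries, and their 0 says nothing of the tRNAs in the cells. The 13 mRNAs and 2 rRNAs had a count in all 72 libraries and passed the filter on low counts in every comparison. The shortest mRNA, MT-ATP8 (207 bases), had an effective length of only 24.7 to 71.2 bases, so its TPM depends on the fragment length of a library. MT-ND6 was counted with few reads, with a median of 410.5 counts over the DMSO wells. Nuclear copies of mitochondrial sequence also took reads, since RSEM divides reads that match more than 1 gene. Of 390 such pseudogenes listed, 146 had a count, and MTATP6P1 on chromosome 1 (chr1:633696-634376) held 82.5% of their counts. In the DMSO wells 16.3% of the counts of MT-ATP6 and MTATP6P1 together went to MTATP6P1, against 1.73% for MT-ND2 and its copy MTND2P28 and 0.132% for MT-CO1 and its copy MTCO1P12. MT-ATP6 values are therefore uncertain. MTATP6P1 rose with triptolide like MT-ATP6 itself, by 3.27 ± 0.24 on the log2 scale at 10000 nM (SE, edgeR adjusted p = 7.81e-12).

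Library sums ranged from 70767 to 68296309 counts with a median of 38.4 mil. Only 3 libraries were under 10 mil: triptolide 100 nM replicate 2 with 70767 counts, DMSO replicate 10 and triptolide 1000 nM replicate 1. In the shallowest library MT-ND6 had 1 count and MT-ATP8 5 counts.

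Per length, MT-CO3 was the most abundant member in the DMSO wells and MT-ND5 and MT-ND6 were the least abundant. MT-CO3, a subunit of cytochrome c oxidase (complex IV), was at 1247 ± 273 TPM (SD, n = 18 for all values in this paragraph), and the other complex IV mRNAs MT-CO1 and MT-CO2 were at 791 ± 197 and 680 ± 255 TPM. The complex I mRNAs covered a wide range of TPM levels: MT-ND3 574 ± 160, MT-ND4L 277 ± 178, MT-ND2 272 ± 92.7, MT-ND4 208 ± 97.2, MT-ND1 164 ± 52.9, MT-ND6 53.3 ± 26.1 and MT-ND5 50.6 ± 29.2. MT-ATP6 and MT-ATP8 of ATP synthase were at 310 ± 139 and 266 ± 306 TPM, and MT-CYB, the only complex III mRNA of the chromosome, was at 212 ± 83.4 TPM. The rRNAs, which make up most mitochondrial RNA in a cell, were at 773 ± 155 TPM for MT-RNR1 and 441 ± 155 TPM for MT-RNR2 after poly(A) selection. In the order of mean levels, only the step from MT-ND1 down to MT-ND6 was larger than the spread (mean ± SD did not overlap), and MT-ND1 was above MT-ND6 in 18 of 18 wells. Every other pair of neighbours overlapped, although MT-CO3 was above MT-CO1 in 18 of 18 wells when compared within a well.

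**Figure D1:**
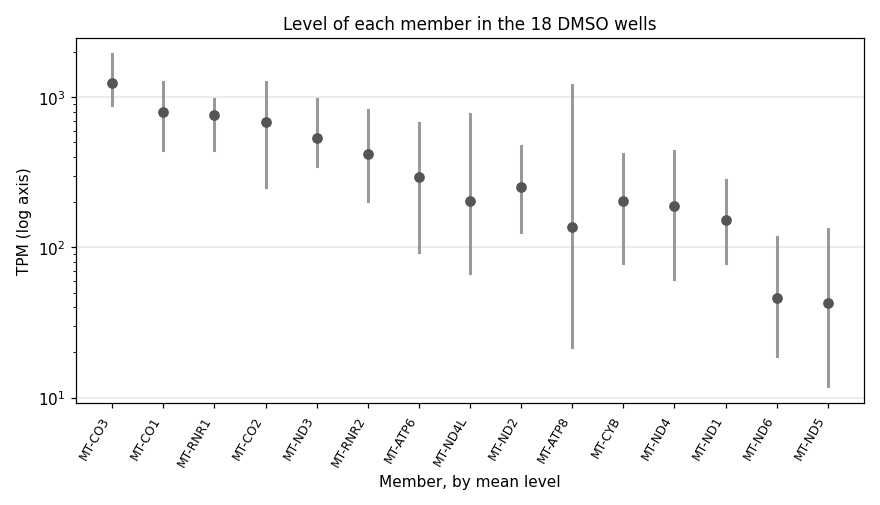
TPM (log axis) of the 15 measured members in the 18 DMSO wells, ordered by mean; points are medians and bars run from the lowest to the highest well. MT-CO3 has the highest median and MT-ND6 and MT-ND5 the lowest, and the bar of MT-ATP8 runs from 21.9 to 1213 TPM.

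The 13 mRNAs together made up 0.243% ± 0.058 of the counts of a DMSO library (SD, n = 18, range 0.138% to 0.367%). With triptolide the share was 0.544%, 0.518% and 0.625% in the 3 wells at 100 nM, 0.949%, 0.768% and 1.09% at 1000 nM, and 1.15%, 1.10% and 1.01% at 10000 nM. All 9 triptolide wells were above the highest DMSO well. The wells of the other 5 compounds lay between 0.112% and 0.387%, and all but 3 of them were within the DMSO range. Those 3 were nilotinib wells, 1 at 100 nM with 0.112%, below the lowest DMSO well, and 2 at 10000 nM with 0.387% and 0.378%, above the highest. Counts are relative to the whole library, and the amount of RNA per well is not among the values used here. A higher share can therefore come from more mitochondrial RNA or from less nuclear RNA, and in bulk samples fewer cells of a type and less RNA per cell cannot be told apart.

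**Figure D2:**
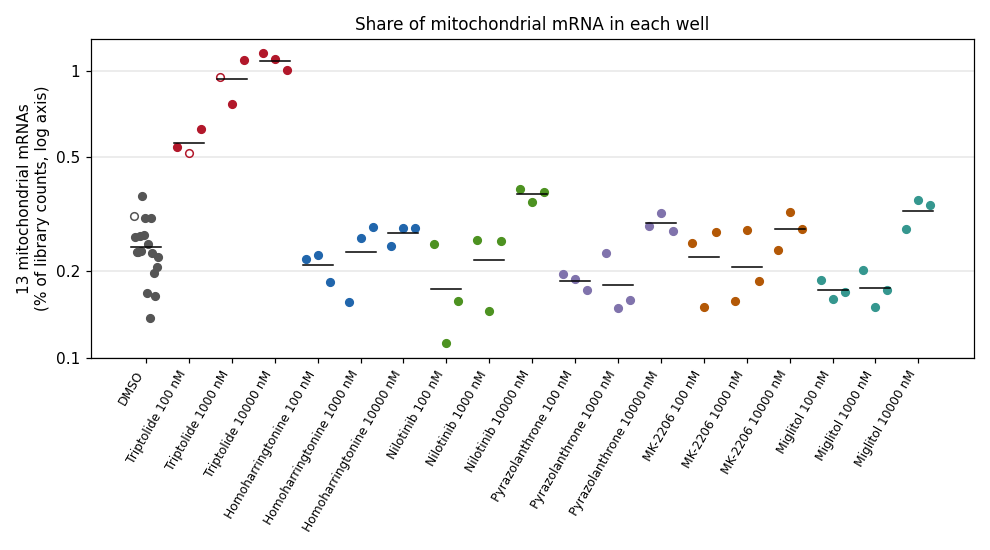
Share of library counts held by the 13 mitochondrial mRNAs in each of the 72 wells (% on a log axis); points are wells, lines are group means, and open points are the 3 libraries under 10 mil counts. The 9 triptolide wells lie between 0.518% and 1.15%, above all 18 DMSO wells (0.138% to 0.367%).

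Every measured member rose with triptolide at 1000 nM and 10000 nM. By the criteria that the study set for the wells of its DRUG-seq screen, a different platform (adjusted p under 0.05 and log2(Fold Change) above 1, here from edgeR's quasi-likelihood test against the 18 DMSO wells), 14 of 15 members were raised at 100 nM, 15 of 15 at 1000 nM and 15 of 15 at 10000 nM, while 11.4%, 13.9% and 16.2% of all tested genes were raised at these doses. The exception, MT-RNR1 at 100 nM, reached 0.98 ± 0.16 (adjusted p = 1.31e-05), and 1.13 without the shallow replicate 2. The median log2(Fold Change) of the 15 members was 1.54, 2.37 and 2.73 at the 3 doses, against -0.16, -0.21 and -0.17 over all tested genes. With library sums as the only scaling the median of all genes moved from -0.17 to -0.70 at 10000 nM, and the members, from 1.14 to 2.84, stayed positive in 15 of 15. The raised genes made up 35.3%, 31.4% and 34.9% of all called genes at the 3 doses, 16.3%, 9.86% and 9.36% with library sums only and 32.3%, 40.8% and 44.1% with DESeq2's size factors. In CPM, each count divided by its library sum on a common scale, the wells did not overlap the DMSO wells for 8, 15 and 14 of the 15 members. Overlap was counted for the members only, so there is no share of all genes to set beside these counts.

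The complex IV mRNAs rose at every dose, and MT-CO1 and MT-CO3 had the highest median counts of the members in the DMSO wells. MT-CO1, the catalytic subunit, ranged from 471 to 1117 CPM in the DMSO wells with a median of 792. It was at 1828, 1300.0 and 1829 CPM with triptolide at 100 nM, at 2983, 2278 and 3487 CPM at 1000 nM, and at 3783, 3620 and 3253 CPM at 10000 nM. No triptolide well overlapped the DMSO wells, and the log2(Fold Change) was 1.38 ± 0.17, 2.37 ± 0.15 and 2.73 ± 0.14 (SE, adjusted p = 2.97e-07, 7.31e-13 and 7.18e-15). MT-CO2, which holds the copper site that takes electrons from cytochrome c, ranged from 102.5 to 392 CPM in DMSO and was at 1349, 1361 and 1066 CPM at 10000 nM, a 7.47-fold difference. MT-CO3 ranged from 404 to 872 CPM in DMSO and was at 1186, 1780.5 and 1788 CPM at 100 nM, 2084, 2174 and 2014 CPM at 1000 nM and 1709, 1812 and 1907 CPM at 10000 nM. Its wells at 10000 nM were all below its wells at 1000 nM, unlike those of MT-CO1.

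The 7 complex I mRNAs differed in how far they rose. MT-ND4, which forms part of the membrane arm that pumps protons, had the largest change of all members at 10000 nM. It ranged from 57.8 to 336 CPM in DMSO with a median of 164, and was at 424, 283 and 445 CPM at 100 nM, 948, 594 and 1104 CPM at 1000 nM and 1410, 1284 and 1113 CPM at 10000 nM. The fold change at 10000 nM was 10.5 (log2 3.39 ± 0.26, adjusted p = 2.7e-11). MT-ND4L, read from the same overlapping transcript, followed with 3.13 ± 0.29 (117 to 154 CPM, against 7.37 to 47.8 in DMSO). MT-ND5, also in the membrane arm, reached 338, 303 and 226 CPM at 10000 nM against a DMSO median of 50.5, and at 100 nM its 1.15 ± 0.40 (adjusted p = 0.0173) was lost without replicate 1 (adjusted p = 0.0863) or replicate 3 (0.112). MT-ND1, MT-ND2 and MT-ND3, which lie upstream on the chromosome, rose by 2.54 ± 0.18, 2.32 ± 0.18 and 2.12 ± 0.14 at 10000 nM. MT-ND3 was at 246, 249 and 251 CPM at 1000 nM and at 181, 203 and 207 CPM at 10000 nM, so that its highest dose was below its middle dose in all wells.

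MT-ND6, the complex I mRNA of the other strand, rose as well. Whether reads were assigned by strand is not given in the sources used here, so reads of the opposite transcript over MT-ND6 cannot be told apart from its own, and all MT-ND6 values carry this limit. It ranged from 5.38 to 24.2 CPM in the DMSO wells with a median of 11.2. It was at 26.3, 14.1 and 48.3 CPM with triptolide at 100 nM, of which 14.1 comes from a single count in the shallow replicate 2, at 65.9, 59.2 and 50.8 CPM at 1000 nM and at 57.2, 55.9 and 59.8 CPM at 10000 nM. The 6 wells at the upper doses lay within a narrow range, all above DMSO. The log2(Fold Change) was 1.85 ± 0.30, 2.69 ± 0.25 and 2.76 ± 0.24 (adjusted p = 1.43e-05, 5.99e-10 and 1.91e-10).

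MT-CYB, the cytochrome b of complex III, was at 884, 741 and 644 CPM with triptolide at 10000 nM against 59.3 to 257 in DMSO, a log2(Fold Change) of 2.92 ± 0.22. MT-ATP6, the subunit a of ATP synthase, was at 654, 572 and 543 CPM against 37.3 to 208, with 2.97 ± 0.25, within the limit set by MTATP6P1. MT-ATP8, the smallest ATP synthase subunit, was the least certain member. Its wells were at 6.67, 70.7 and 28.5 CPM at 100 nM, 28.9, 37.6 and 47.2 CPM at 1000 nM and 10.4, 19.7 and 16.5 CPM at 10000 nM, against 0.676 to 23.7 in DMSO, so the wells at 100 nM and at 10000 nM overlapped DMSO. Its call at 10000 nM (1.80 ± 0.56, adjusted p = 0.00599) was lost without replicate 2 (1.57, adjusted p = 0.0522), and that at 100 nM (1.88 ± 0.70, adjusted p = 0.0251) without replicate 3 (0.86, adjusted p = 0.551).

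Of the rRNAs, MT-RNR1 had the smallest change of the 15 members at each dose. MT-RNR1 ranged from 273 to 578 CPM in DMSO with a median of 413, and was at 764, 622 and 710.5 CPM at 100 nM, 872, 780.4 and 975 CPM at 1000 nM and 1070.0, 956 and 836 CPM at 10000 nM, a log2(Fold Change) of 1.68 ± 0.14 at the highest dose. MT-RNR2, the rRNA of the large subunit, ranged from 218 to 728 CPM in DMSO and was at 1915, 1651 and 1393 CPM at 10000 nM, with 2.46 ± 0.20 (adjusted p = 6.55e-11). Both rRNAs were above every DMSO well at all 3 doses.

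**Figure D3:**
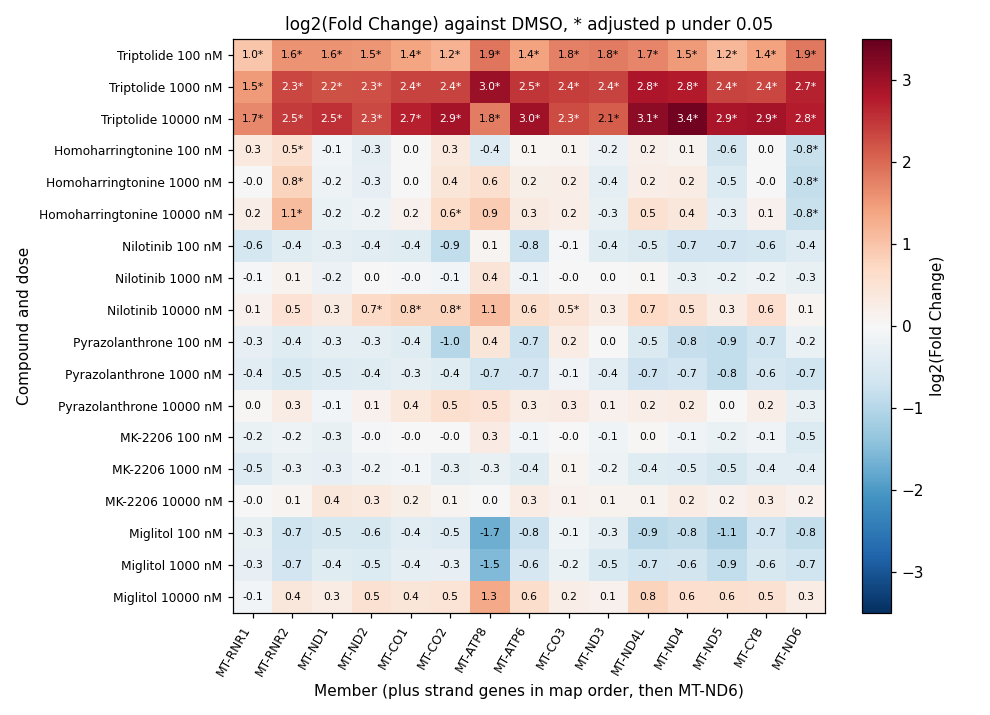
log2(Fold Change) against the 18 DMSO wells for the 15 measured members (columns) in the 18 compound and dose comparisons (rows), in red where higher and blue where lower, with an asterisk where the edgeR adjusted p was under 0.05. The 3 triptolide rows are above 0 throughout (0.98 to 3.39), and outside them asterisks stand only on MT-RNR2, MT-ND6 and MT-CO2 with homoharringtonine and on 4 mRNAs with nilotinib at 10000 nM.

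To compare the members with each other, each was tested again with the summed count of the 13 mRNAs as the library size, and calls used the adjusted p alone. Each mRNA is itself part of this sum. MT-CO1 and MT-CO3 weigh most in it, with 2.68e+06 and 1.79e+06 counts over the 72 libraries. On this scale the median log2(Fold Change) of all tested genes with triptolide was -1.81, -2.68 and -2.92 at 100 nM, 1000 nM and 10000 nM, and 81.1%, 95.5% and 98.4% of them passed in either direction. MT-RNR1 was lower relative to the mRNAs at all 3 doses. Per 100 counts of the 13 mRNAs it had 12.0 to 25.6 counts in the DMSO wells (median 17.5) and 9.29, 8.68 and 8.30 counts with triptolide at 10000 nM, below every DMSO well. Its relative log2(Fold Change) was -0.55 ± 0.21, -0.96 ± 0.21 and -1.07 ± 0.21 with rising dose (adjusted p = 0.0181, 0.000142 and 2.94e-05), and the first of these was lost without replicate 2 (adjusted p = 0.0545) or replicate 3 (0.0954). MT-RNR2 had 13.8 to 16.6 counts per 100 at 10000 nM, within the DMSO range of 13.3 to 23.7.

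At 10000 nM 6 of the 15 members passed on this scale. MT-ND4 was higher, with 12.2, 11.7 and 11.1 counts per 100 mRNA counts against 4.20 to 9.74 in DMSO (0.72 ± 0.20, adjusted p = 0.00111), and MT-ND4L was higher by 0.48 ± 0.22 (adjusted p = 0.042). MT-ND2, MT-CO3 and MT-ND3 were lower by -0.38 ± 0.14, -0.45 ± 0.19 and -0.645 ± 0.22 (adjusted p = 0.0111, 0.0225 and 0.00703). MT-ND2 took 5.28%, 5.18% and 5.31% of the mRNA counts, below every DMSO well (6.08% to 8.41%). Leaving out single wells ended the calls of MT-ND4L (adjusted p = 0.146, 0.0736 and 0.0702 without replicates 1, 2 and 3), of MT-CO3 (0.113 and 0.0679 without replicates 1 and 2) and of MT-ND3 (0.0509 without replicate 1), and left those of MT-RNR1, MT-ND2 and MT-ND4. MT-ND6 kept its place among the mRNAs, with 0.497%, 0.508% and 0.593% of their counts at 10000 nM inside the DMSO range of 0.344% to 0.765%.

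Few members passed with homoharringtonine. At 100 nM, 1000 nM and 10000 nM, 2, 2 and 3 of the 15 members passed the adjusted p against DMSO, while 63.4%, 68.4% and 74% of all tested genes did, and only MT-RNR2 at 10000 nM also passed the fold criterion. MT-CO2 was the third member at 10000 nM, higher by 0.65 ± 0.26 (adjusted p = 0.0276), a call lost without replicate 2 (0.0792) or replicate 3 (0.0981). MT-RNR2 was at 822, 879 and 1032 CPM at 10000 nM, above the highest DMSO well (728), at 379, 718 and 929.9 CPM at 1000 nM and at 649.6, 560.0 and 412 CPM at 100 nM. Its log2(Fold Change) was 0.53 ± 0.23, 0.77 ± 0.25 and 1.11 ± 0.23 (adjusted p = 0.0477, 0.00841 and 0.000117). The call at 100 nM was lost without replicate 1 (adjusted p = 0.239) or replicate 2 (0.123), and that at 1000 nM without replicate 3 (0.174). At 10000 nM it dropped below the fold criterion without replicate 3, and with fragment length in the fit. MT-RNR1 had 0.35, -0.01 and 0.23 and did not pass (adjusted p = 0.0529, 0.977 and 0.197).

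MT-ND6 was the member that fell. It was at 5.65, 6.58 and 6.35 CPM with homoharringtonine at 100 nM, 4.61, 6.03 and 8.21 CPM at 1000 nM and 6.22, 6.79 and 8.23 CPM at 10000 nM. All 9 wells were below the DMSO median of 11.2 CPM, and 8 of the 9 were inside the DMSO range, which starts at 5.38. The log2(Fold Change) was -0.78 ± 0.32, -0.84 ± 0.33 and -0.77 ± 0.32 (adjusted p = 0.0402, 0.0287 and 0.0372). Leaving out replicate 1 or 2 ended these calls at each dose (adjusted p = 0.0897 to 0.139), and leaving out replicate 3 at 100 nM as well (0.0802).

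Relative to the 13 mRNAs MT-ND6 and MT-RNR2 again passed at each dose, with smaller SE. MT-ND6 was lower by -0.79 ± 0.24, -0.92 ± 0.24 and -0.97 ± 0.24 (adjusted p = 0.00687, 0.00214 and 0.000831), and MT-RNR2 was higher by 0.51 ± 0.15, 0.66 ± 0.16 and 0.91 ± 0.15 (adjusted p = 0.00694, 0.000862 and 6.21e-06); 51.2%, 56.6% and 65.8% of all tested genes passed on this scale. MT-ND6 made up 0.344% to 0.765% of the mRNA counts in the DMSO wells. With homoharringtonine it made up 0.256%, 0.289% and 0.346% at 100 nM, 0.296%, 0.230% and 0.288% at 1000 nM and 0.253%, 0.239% and 0.291% at 10000 nM. All wells but the last at 100 nM were thus below every DMSO well. At 100 nM both calls were lost without replicate 1 (adjusted p = 0.055 for MT-ND6 and 0.0928 for MT-RNR2), and at the higher doses they passed without any one well.

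On the same scale MT-ND2 was lower at all 3 doses of homoharringtonine (-0.36 ± 0.14, -0.38 ± 0.14 and -0.39 ± 0.14), and every one of the 9 wells (5.01% to 5.69% of the mRNA counts) was below every DMSO well (6.08% to 8.41%). Its adjusted p was 0.0304, 0.0228 and 0.0147. It rose above 0.05 on leaving out any one of the wells at 100 nM (0.0549 to 0.128) or 1000 nM (0.0558 to 0.0833), and on leaving out replicate 2 or 3 at 10000 nM (0.0558 and 0.0661). At 10000 nM MT-CO2 was higher by 0.46 ± 0.18, and MT-ND1 and MT-ND3 were lower by -0.44 ± 0.18 and -0.53 ± 0.21 (adjusted p = 0.025, 0.0318 and 0.033), and each of these calls was lost on leaving out any single treated well (adjusted p = 0.0605 to 0.13). MT-CO2 made up 13.9%, 13.6% and 13.7% of the mRNA counts, above the DMSO range of 6.40% to 12.9%.

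**Figure D4:**
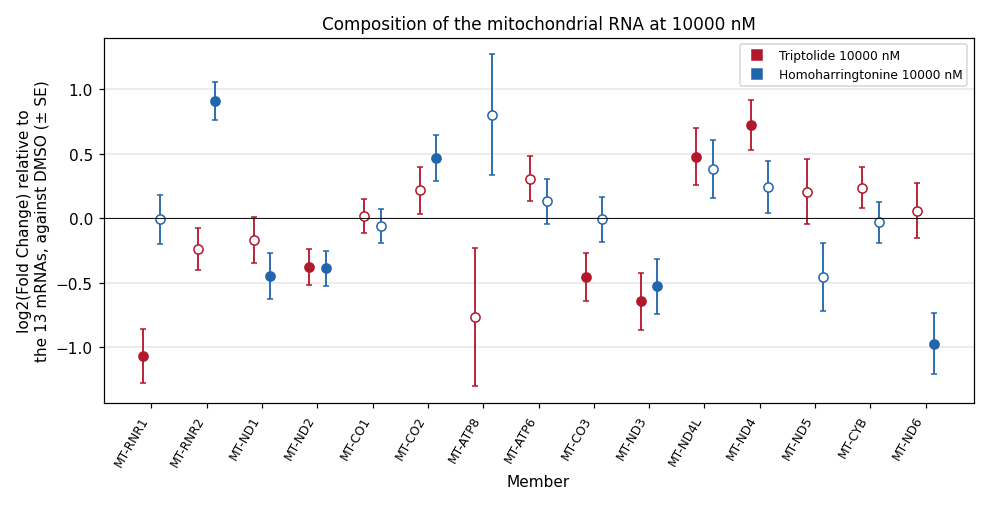
log2(Fold Change) against DMSO with the summed count of the 13 mRNAs as library size, for triptolide (red) and homoharringtonine (blue) at 10000 nM; bars are SE and filled points have an edgeR adjusted p under 0.05. MT-RNR1 is lowest with triptolide (-1.07) and MT-ND6 with homoharringtonine (-0.97), while MT-RNR2 is highest with homoharringtonine (0.91).

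As a ratio within a well, MT-ND6 against the other 12 mRNAs was -7.62 ± 0.39 on the log2 scale in DMSO (SD, n = 18, range -8.18 to -7.02). It was -8.40 ± 0.22, -8.53 ± 0.20 and -8.58 ± 0.15 with homoharringtonine at the 3 doses, and -7.74 ± 0.76, -7.30 ± 0.38 and -7.55 ± 0.14 with triptolide (n = 3 each). Of the 9 homoharringtonine wells 8 were below the lowest DMSO well. Single wells of other compounds were below it too, with pyrazolanthrone at 10000 nM (-8.29 and -8.28), nilotinib at 10000 nM (-8.20) and miglitol at 100 nM (-8.23). The triptolide wells were spread over the DMSO range, except for the shallow library at -8.51, below it, and 2 wells at -7.00 and -7.01, just above it. The log2 ratio of MT-RNR2 to MT-RNR1 was -0.02 ± 0.35 in DMSO (range -0.47 to 0.72). At 10000 nM it was 0.83, 0.75 and 1.06 in the homoharringtonine wells and 0.84, 0.79 and 0.74 in the triptolide wells. All were above the highest DMSO well. Lower doses overlapped the DMSO range. Homoharringtonine wells were at 0.23, 0.29 and 0.06 at 100 nM and 0.24, 0.73 and 1.16 at 1000 nM. Triptolide wells were at 0.39, 0.79 and 0.77 at 100 nM and 0.60, 0.62 and 1.19 at 1000 nM. The homoharringtonine wells at 1000 nM had fragment lengths of 167, 205 and 213 bases, and the highest DMSO well had 216. How fragment length bears on the ratio was not tested. At 10000 nM the members behind the ratio differed. With triptolide both rRNAs rose and MT-RNR1 rose less, while with homoharringtonine MT-RNR2 rose and MT-RNR1 did not pass.

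**Figure D5:**
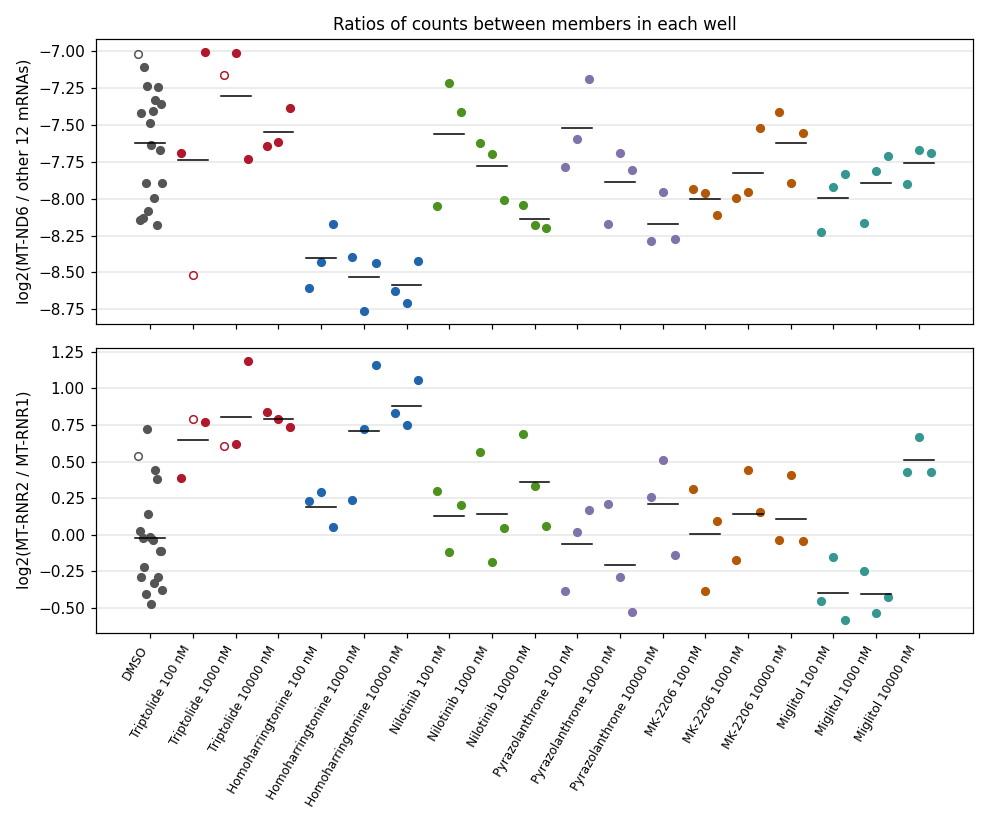
Per-well log2 ratios of counts, with MT-ND6 against the other 12 mRNAs above and MT-RNR2 against MT-RNR1 below, for all 72 wells; points are wells, lines are group means, and open points are the 3 libraries under 10 mil counts. The homoharringtonine wells lie at -8.17 or lower in the upper panel, and triptolide and homoharringtonine at 10000 nM lie above 0.72, the highest DMSO well, in the lower panel.

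Triptolide and homoharringtonine were also compared directly at matched doses, 3 wells against 3. Higher with triptolide by both criteria were 13 of 15 members at 100 nM, 15 at 1000 nM and 14 at 10000 nM, against 20.5%, 22.6% and 30.2% of all tested genes. All 15 passed the adjusted p alone at each dose, a count given without the share of all tested genes at that threshold. MT-ND6 had the largest difference at each dose, 2.71 ± 0.26, 3.505 ± 0.28 and 3.60 ± 0.12 (adjusted p = 1e-07, 1.32e-05 and 2.66e-10). At 10000 nM it was followed by MT-ND5 with 3.24 ± 0.18 and MT-ND4 with 3.06 ± 0.11. The rRNAs were among the smallest differences, 1.53 ± 0.09 for MT-RNR1 and 1.44 ± 0.12 for MT-RNR2 at 10000 nM, and with library sums as the only scaling both fell below the fold criterion (0.95 and 0.86). MT-ATP8 missed that criterion at 10000 nM with 0.99 ± 0.22, and at 100 nM MT-CO2 (0.97 ± 0.22) and MT-RNR1 (0.71 ± 0.21) missed it. Without replicate 3 at 100 nM MT-RNR2 (0.66) and MT-ATP8 (0.33) did as well. These values share the treated wells with the comparisons against DMSO.

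Nilotinib at 10000 nM raised 4 of 15 members past the adjusted p, against 14.4% of all tested genes in either direction. These were the 3 complex IV mRNAs MT-CO1 (0.77 ± 0.16, adjusted p = 0.00178), MT-CO2 (0.77 ± 0.26, 0.0441) and MT-CO3 (0.48 ± 0.13, 0.0149), and MT-ND2 (0.68 ± 0.22, 0.0361). MT-CO1 was at 1373, 1235 and 1357 CPM, above the highest DMSO well at 1117, and it alone passed without each of the 3 wells; the others had adjusted p of 0.0511 to 0.207 without 1 well. All 15 members had positive log2(Fold Change), from 0.08 to 1.07, and none met both criteria. Relative to the 13 mRNAs, MT-RNR1 (-0.51 ± 0.20, adjusted p = 0.0353) and MT-ND6 (-0.53 ± 0.23, 0.0482) were lower, where 53.4% of all tested genes passed, and neither call held without any one of the wells (adjusted p = 0.0868 to 0.147).

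In the other 11 comparisons with DMSO no member passed, with log2(Fold Change) from -1.705 to 1.33 and edgeR adjusted p from 0.0599. Of these 165 tests 33 had an unadjusted p under 0.05 by edgeR. Miglitol at 100 nM gave 11 of them, from 15 members, where 944 of all 18496 tested genes had such a p. DESeq2 called 2 members, 1 with nilotinib at 100 nM, where it called 2317 of all genes, and 1 with pyrazolanthrone at 100 nM (1567). MK-2206, an AKT inhibitor, changed 0.0648%, 1.52% and 3.15% of all tested genes at 100 nM, 1000 nM and 10000 nM by the adjusted p. Nilotinib changed 9.08% at 100 nM and 3.95% at 1000 nM, and pyrazolanthrone 4.77%, 0% and 7.65% at the 3 doses. With miglitol 0% of genes passed at 100 nM, 0% at 1000 nM and 0% at 10000 nM. With shares this low, 0 of 15 members past the adjusted p is near the background for that threshold.

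Within the treated wells of a compound, slopes on log10 dose were tested with the adjusted p alone. With triptolide 11 of 15 members rose with dose, against 24.7% of all tested genes with a slope in either direction. The steepest slopes per 10-fold of dose were those of MT-ND4 (0.89 ± 0.14, adjusted p = 0.000574), MT-CO2 (0.78 ± 0.14) and MT-ND5 (0.78 ± 0.15), and MT-RNR1 had a slope of 0.29 ± 0.09. MT-CO3, MT-ND3, MT-ND6 and MT-ATP8 did not pass (0.20, 0.08, 0.37 and -0.25). Without replicate 1 at each dose 6 members passed, and MT-RNR1, MT-RNR2, MT-ND2, MT-ND4L and MT-ND5 were lost. Without replicate 2 MT-ND2, MT-RNR2 and MT-RNR1 were lost (edgeR adjusted p = 0.115, 0.161 and 0.0936). Without replicate 3 MT-ND1, MT-ND2 and MT-RNR1 were lost (0.0596, 0.0667 and 0.0931). Leaving out libraries under 10 mil ended the call of MT-RNR2 (0.115). With fragment length in the fit MT-ND2, MT-RNR2 and MT-RNR1 were lost (edgeR adjusted p = 0.0974, 0.0984 and 0.083). With library sums only MT-ND2 and MT-RNR2 were lost (0.0581 and 0.0748).

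Members also had slopes with miglitol, where no member passed the adjusted p against DMSO at any dose. There 12 of 15 passed, against 15.9% of all tested genes, with slopes from 0.41 to 1.58 and adjusted p of 0.0274 to 0.0369. The share of the 13 mRNAs was 0.186%, 0.1605% and 0.169% at 100 nM, 0.203%, 0.150% and 0.173% at 1000 nM and 0.281%, 0.354% and 0.3395% at 10000 nM. The wells at 10000 nM were above those at the lower doses, and all 9 were inside the DMSO range. The fragment length, taken from the effective lengths, was 181 ± 16.8, 195 ± 8.96 and 197 ± 3.48 bases at the 3 doses (SD, n = 3). With fragment length in the fit the slopes of the 12 members were 0.32 (MT-CO2) to 1.86 (MT-ATP8), and their adjusted p rose to 0.175 to 0.243, so that 0 passed. Leaving out replicates 1, 2 and 3 left 0, 3 and 0. Pyrazolanthrone had 5 members with a slope, MT-CO2 (0.77 ± 0.15), MT-ND4, MT-ATP6, MT-CYB and MT-CO1, against 18.6% of all tested genes, and its fragment length was 152 ± 2.18, 184 ± 20.2 and 188 ± 11.4 bases at the 3 doses. With fragment length in the fit the slopes of these 5 were 0.31 (MT-CO1) to 0.53 (MT-CO2), and 0 passed (adjusted p = 0.469 to 0.606). Without replicate 2 or without replicate 3 there were also 0. No member passed with homoharringtonine, MK-2206 or nilotinib, where 44%, 0.028% and 3.09% of all tested genes did by edgeR. At an unadjusted p under 0.05 there were 0, 2 and 11 members, beside 9592 of 18315, 1583 of 17880 and 4568 of 17778 tested genes. DESeq2 called 0, 0 and 6 members, beside 8692, 160 and 2302 of all genes.

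Some of the nuclear genes that serve the mitochondrial chromosome fell with triptolide. Of 35 genes for mitochondrial transcription, RNA processing and RNA stability, 19 were lowered and 2 raised at 10000 nM, with a median log2(Fold Change) of -1.34, while 30.2% of all tested genes were lowered, 16.2% were raised and the median was -0.17. At 100 nM and 1000 nM 10 and 20 were lowered, against 20.9% and 30.4% of all tested genes. The transcription factors of the organelle were among them. TFB2M, which melts the promoter for POLRMT, was at 1.93, 1.73 and 1.54 CPM at 10000 nM against 15.2 to 28.3 in DMSO (-2.998 ± 0.19), and the elongation factor TEFM was at 0.538, 0.645 and 0.629 CPM against 6.95 to 15.6 (-3.45 ± 0.27). POLRMT itself was at 23.3, 23.85 and 23.8 CPM against 61.6 to 106.5 (-1.29 ± 0.15), and MTERF1, which binds a termination site downstream of the rRNA genes, changed by -4.78 ± 0.48. None of these overlapped the DMSO wells. TFAM, which packages the DNA and bends it at promoters, fell by 0.91 ± 0.22 on the log2 scale (adjusted p = 0.000696), short of the fold criterion, and LRPPRC, which with SLIRP stabilizes the mRNAs, did not pass (-0.42 ± 0.27, adjusted p = 0.168).

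The largest falls in this list were FASTKD5, needed to process mRNA ends without a tRNA next to them, with -6.34 ± 0.26 (0.518, 0.285 and 0.247 CPM against 33.05 to 51.1 in DMSO), and TRMT10C, a subunit of the RNase P that cuts tRNA 5′ ends, with -5.40 ± 0.36. The 2 genes raised were FASTK (1.10 ± 0.12), a relative of FASTKD5 that is needed for MT-ND6 mRNA, and SLIRP (1.085 ± 0.28), whose wells overlapped DMSO. With library sums as the only scaling 25 were lowered and neither was called raised.

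With homoharringtonine at 10000 nM 12 of the 35 genes were raised and 3 lowered, with a median of 0.11, against 23.6% and 23.4% of all tested genes and a median of -0.05. SUPV3L1, the helicase of the mitochondrial RNA degradosome, was at 139, 132 and 137 CPM against 28.8 to 56.5 in DMSO (1.95 ± 0.11), and TRNT1, which adds CCA to tRNAs, was at 42.7, 42.3 and 55.4 CPM against 8.89 to 23.9 (1.82 ± 0.19). LRPPRC (1.70 ± 0.23), MTERF1 (1.30 ± 0.26) and TFB2M (1.095 ± 0.13) were raised too. POLRMT fell to 33.8, 30.2 and 30.45 CPM (-1.37 ± 0.15) and the mitochondrial topoisomerase TOP1MT to 35, 37.5 and 36.2 CPM (-1.29 ± 0.13). TFAM and TEFM were higher by 0.77 ± 0.20 and 0.75 ± 0.18, below the fold criterion. FASTK, named here after its values were seen, was at 8.18, 7.72 and 7.40 CPM with homoharringtonine at 10000 nM, below the lowest DMSO well (13.04), and at 27.9, 27.4 and 27.3 CPM with triptolide at 10000 nM, above the highest (23.8). With triptolide at 100 nM it was at 27.6, 14.1 and 30.9 CPM, with 1 well inside the DMSO range. Whether FASTK bears on the MT-ND6 values was not tested. POLRMT was lower with both compounds, while TFB2M and MTERF1 went in opposite directions.

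The 72 nuclear genes for subunits of the respiratory chain and ATP synthase include the partners of the 13 mitochondrial products. With triptolide at 100 nM, 1000 nM and 10000 nM 18, 33 and 42 of 72 were raised, against 11.4%, 13.9% and 16.2% of all tested genes, and 0, 2 and 1 were lowered, against 20.9%, 30.4% and 30.2%, with a median log2(Fold Change) of 0.77, 0.98 and 1.07. These calls depended on the scaling. With library sums alone 1 was raised and 2 lowered at 10000 nM, where 785 of all 18536 tested genes were raised and 7599 lowered, and the median was 0.53, beside a median of -0.70 over all genes (-0.17 with the first scaling). NDUFB2 (1.53 ± 0.11) and UQCRQ (1.525 ± 0.15), subunits of complexes I and III, had the largest rises, with 85.5 to 92.0 CPM against 28.3 to 51.5 and 266 to 318 CPM against 71.7 to 185 in DMSO. NDUFV3 fell to 10.8, 10.6 and 10.7 CPM from 19.6 to 39.2 (-1.04 ± 0.12). With homoharringtonine at 10000 nM 1 of 72 was raised and 2 were lowered, against 23.6% and 23.4% of all tested genes. The complex I subunit genes NDUFS1 (1.135 ± 0.18) and NDUFS6 (-1.04 ± 0.19) were among them.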

How the data were processed

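Population RNA-seq libraries of 72 U2OS wells were analysed. Per the labels, the authors made TruSeq Stranded mRNA libraries after poly(A) selection; the submitters' processing notes name GRCh38, HTSeq, RSEM and DESeq2, and versions, aligner, annotation release and strand setting are not given in the sources used here. The deposited expected counts are RSEM estimates per gene, not normalized. The deposited TPM values were scaled by the authors' RSEM run to effective length and a fixed sum. Deposited FPKM values were not used, and the 2 length columns gave effective lengths. Gene symbols and positions came from GENCODE release 44 (56104 of 60371 identifiers matched) and bases from a GRCh38 reference, whose mitochondrial chromosome has 16569 bases; the files hold no coordinates.

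Rounded expected counts were fitted in R 4.3.3 with edgeR 4.0.16 (TMM, filterByExpr, glmQLFit and glmQLFTest, Benjamini-Hochberg over all genes tested): each compound and dose against 18 DMSO wells, triptolide against homoharringtonine, and slopes on log10 dose. Fits relative to the mRNAs used their summed count as library size. A gene was raised or lowered with adjusted p under 0.05 and log2(Fold Change) above 1 or below -1. Alternatives were library sums only, DESeq2's size factors, DESeq2 1.42.0, no filter, leaving out libraries under 10 mil or single wells, the replicate block, scaling to 9 mRNAs without overlap, TPM for ratios, and, chosen after seeing the data, fragment length (length minus effective length of MT-RNR2) as covariate. Scripts were tested on simulated data. Library sums of 70767 to 68296309 counts set the precision.

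Members and lists were chosen with earlier results of these data known. All 15 measured members are named. Of the 35 nuclear genes, POLRMT, TFAM, TFB2M, TEFM, MTERF1 and LRPPRC are named, and of each list the 2 largest rises and 2 largest falls called at 10000 nM with triptolide or homoharringtonine. One gene that this rule names is not reported here.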

Additional observations from a re-analysis of the deposited data

How the results depend on the processing

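With triptolide all 15 members kept a positive log2(Fold Change) at each dose under every alternative run, and the counts of raised members stayed within 1.5 times those given. The small effects depended more on single wells. The shares of all tested genes under these alternatives are not given here, so the counts below show only how the calls moved. Members called with homoharringtonine at 10000 nM ranged from 0 to 1 without single wells, at 1000 nM from 0 to 1, and were 1 at 100 nM with library sums only, against 0. Members past the adjusted p alone ranged without single wells from 0 to 1 (100 nM), 1 to 2 (1000 nM) and 1 to 2 (10000 nM), and from 1 to 1 for nilotinib at 10000 nM. At 100 nM 1 passed with DESeq2's size factors, with DESeq2, without the filter and without libraries under 10 mil. For the other 12 comparisons 1 member was called with library sums only, and leaving out wells gave 0 to 7, of which 6 fell with nilotinib at 100 nM without replicate 1.

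Relative to the 13 mRNAs, leaving out wells gave 0 to 1, 1 to 2 and 3 to 5 members with triptolide at rising dose, 0 to 2, 2 to 2 and 2 to 3 with homoharringtonine, and 0 to 0 with nilotinib at 10000 nM. Without the filter 0 passed at 100 nM triptolide and 0 with nilotinib, and scaling to the 9 mRNAs gave 2 with triptolide at 1000 nM and 1 with nilotinib. Slopes without single wells passed for 6 to 8 members with triptolide, 0 to 3 with miglitol, 0 to 7 with pyrazolanthrone, 0 to 7 with nilotinib and 0 to 1 with homoharringtonine; nilotinib had 6 with DESeq2, and homoharringtonine 2 with library sums only.

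Fragment length as covariate, added after seeing the data, gave 0 called members with homoharringtonine at 10000 nM, 4 past the adjusted p at 100 nM and 4 at 1000 nM, and 8 with nilotinib. Relative to the mRNAs it gave 4 with triptolide at 1000 nM and 5 with homoharringtonine at 100 nM, and slopes passed for 0 members with miglitol, 0 with pyrazolanthrone and 9 with nilotinib.

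The wells share only a number: deviations of same-numbered treated and DMSO wells correlated by -0.055 on average over 52 pairs, of which 19 were above 0.1. With the replicate block (DMSO 1 to 3 only) 2 and 5 members were called with homoharringtonine at 1000 nM and 10000 nM and 20 over the other 12 comparisons. The shares of all tested genes are not given for the block either. By the adjusted p alone 9 and 8 passed with homoharringtonine at 100 nM and 10000 nM and 12 with nilotinib. Relative to the mRNAs the block left 2 with triptolide at 1000 nM, 1, 1 and 3 with homoharringtonine, and 1 with nilotinib, whose slopes passed for 12 members. MT-ND6 against DMSO was -0.34, -0.43 and -0.34 with homoharringtonine under the block and did not pass (adjusted p = 0.235, 0.305 and 0.353). Relative to the mRNAs MT-ND6 and MT-RNR2 at 1000 nM (adjusted p = 0.0766 and 0.254), MT-RNR2 at 100 nM (0.0809), MT-ND2 at all doses (0.355 to 0.566) and, with triptolide, MT-ND2 and MT-CO3 at 10000 nM (0.366 and 0.095) and MT-RNR1 at 100 nM (0.0606) did not pass either.

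With library sums only 0 of the mitochondrial gene expression list were raised with triptolide at 10000 nM, and 1 of the respiratory chain list was raised and 2 lowered. From TPM, the mean log2 difference of the mRNA share from DMSO was 0.99 and 1.91 with triptolide at 100 nM and 10000 nM (1.248 and 2.2 from counts) and 0.42 with homoharringtonine at 10000 nM (0.20). That of the rRNAs against the mRNAs was -0.30 with triptolide at 100 nM (-0.17) and 0.18 and 0.30 with homoharringtonine at 1000 nM and 10000 nM (0.34 and 0.53). Where no cause is given for a change, the cause was not tested. The tRNAs and MT-ATP8 are limited by fragment length, and MT-ND6 by few counts.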
